A study of Arabidopsis thaliana with 12 samples.

Results

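The genes described here are 126 loci of Arabidopsis thaliana whose transcripts were lower in wild-type (WT) leaves given latrunculin B than in WT leaves given the solvent DMSO, while their mean level in sid2 leaves was about the same under both treatments. They were found with L = log2((mean TPM latB + 1)/(mean TPM DMSO + 1)), where TPM, the level of a gene per coding length within its library, is the unit of the deposited values. A member had an L of -1.5 or less in WT, with its highest WT latB library below its lowest WT DMSO library, and an L between -0.25 and 0.25 in sid2. Of 27313 loci, 310 met the WT condition, and 126 of those (40.6%) met the sid2 condition too. A further 109 of the 310 had an L below the sid2 band and 75 had an L above it.

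Fully expanded rosette leaves of plants 4 weeks old were infiltrated, 3 per plant, and total RNA was taken 24 h later. The 4 groups were sid2 with 1 µM latrunculin B (sid2 latB), sid2 with 0.01% DMSO (sid2 DMSO), WT with 1 µM latrunculin B (WT latB) and WT with 0.01% DMSO (WT DMSO), with 3 libraries each. WT is the accession Col-0, and sid2 plants carry a lesion in ICS1, which encodes isochorismate synthase; no label gives the allele. Nothing in the labels ties a library to its own plant, so each p-value here weighs a group difference only against the spread of these samples, which may be technical.

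Latrunculin B binds actin monomers and so takes down actin filaments, the tracks along which plant cells move secretory vesicles to the surface. ICS1 starts the main route to salicylic acid, a defence hormone whose accumulation goes with slower growth. A growing plant cell is held by a wall of cellulose, xyloglucan and pectin that yields to turgor while expansins loosen it, xyloglucan endotransglucosylases cut and rejoin its xyloglucan, and aquaporins let water in. SAUR proteins, made from early auxin-response transcripts, switch on the proton pumps that acidify the wall.

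Library totals ran from 14506962 to 22449387 estimated reads, and 18149 loci were tested. No pair of libraries within a group agreed to within sampling noise. The first principal component (51.7% of the variance) set the WT latB libraries apart from the others, and sid2 DMSO replicate 3 lay apart from its group on the third. ICS1 (AT1G74710) transcripts stood at 132 to 173 TPM in sid2 latB, 155 to 158 TPM in sid2 DMSO, 64.2 to 99.2 TPM in WT latB and 8.97 to 10.3 TPM in WT DMSO. A transcript level does not test the lesion, and PR1 (AT2G14610), a marker of salicylic acid, separated the labels, with at most 13.3 TPM in any sid2 library and at least 130 TPM in any WT library.

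The members were chosen by L in WT and in sid2 and by the order of the WT libraries, so these values are given as a description. In WT, L ran from -4.0006 to -1.51 with a median of -1.79, with 44 members at -2 or less and 6 at -3 or less. In sid2 the median L was -0.05. Just inside the WT threshold lay the wax gene CER3 (-1.5056), AT1G70100 (-1.5064) and SETH3 (-1.5149), and just outside it AT3G07010 (-1.4999), AT5G07580 (-1.4959) and AT3G16370 (-1.4922). At the upper edge of the sid2 band AGP21, AT1G51402 and AT4G25260 lay inside with 0.2483, 0.2469 and 0.2373, while RABA5E, ESE3 and FLA2 lay outside with 0.2501, 0.2587 and 0.2625. At the lower edge AT2G34510, WRI4 and SAUR20 lay inside with -0.2498, -0.2470 and -0.2459, while BXL1, SAUR68 and GALS1 lay outside with -0.2531, -0.2550 and -0.2616. Another 3 loci met both values of L but had overlapping WT libraries.

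**Figure D1:**
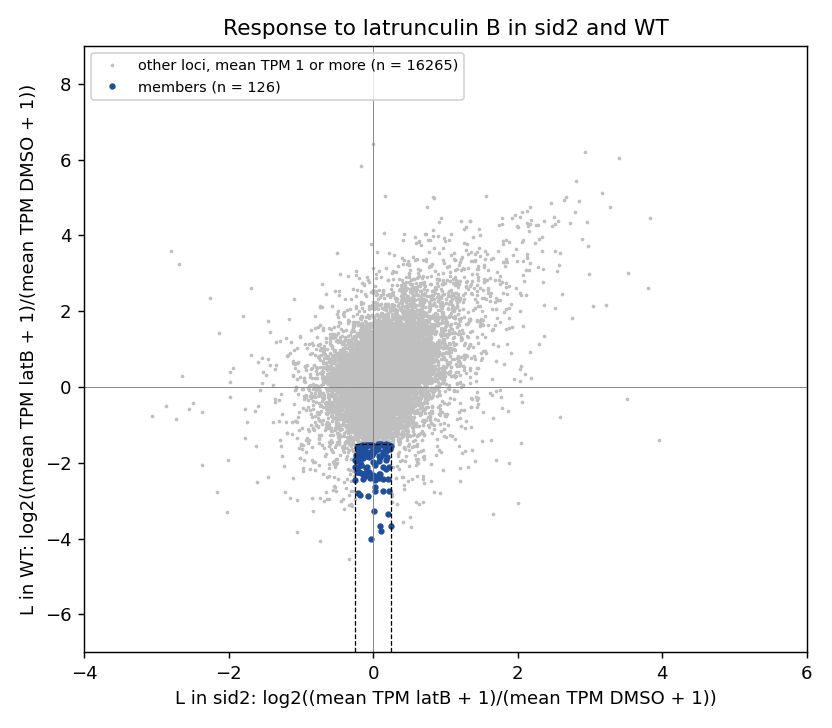
L in sid2 (x axis) and in WT (y axis), both on a log2 scale, for the 126 members (blue) and for 16265 other loci with a mean TPM of at least 1 (grey), with the dashed lines at the limits of the rule. The members fill the strip between -0.25 and 0.25 on the x axis from -1.51 down to -4.0006 on the y axis.

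By edgeR's quasi-likelihood test all 125 tested members passed as lower in WT latB than in WT DMSO, against 22.7% of all loci, and none passed in sid2 latB against sid2 DMSO, against 4.73% of all loci (3.53% higher and 1.21% lower). Both contrasts chose the members, so nothing is read from these counts. Of the 125, 1 had an unadjusted p under 0.05 in sid2, and DESeq2 and limma also passed none there. On the TMM scale of that fit the median log2 fold change in sid2 was -0.18, with 100 members below 0 and 25 above, beside 0.00 over all loci, and scaling by library size alone put it at -0.03. AT5G35510 was too low to be tested.

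The regions around the starts of 5 members are shown because they belong to the 4 members with the lowest L in WT and to the member with the lowest L among those holding TTGACC, a W-box. Each runs from 250 bases before the annotated gene start to 50 bases after it, on the strand of the gene, 5′ to 3′, in the TAIR10.1 assembly of RefSeq, with capitals marking any of 15 motifs searched. SAUR29 (AT3G03820) is on the minus strand at chr3:977425-977724, XTH6 (AT5G65730) on the plus strand at chr5:26298478-26298777 and XTH4 (AT2G06850) on the plus strand at chr2:2763199-2763498. AGP21 (AT1G55330) is on the minus strand at chr1:20648842-20649141 and DGR2 (AT5G25460) on the plus strand at chr5:8862974-8863273.
SAUR29: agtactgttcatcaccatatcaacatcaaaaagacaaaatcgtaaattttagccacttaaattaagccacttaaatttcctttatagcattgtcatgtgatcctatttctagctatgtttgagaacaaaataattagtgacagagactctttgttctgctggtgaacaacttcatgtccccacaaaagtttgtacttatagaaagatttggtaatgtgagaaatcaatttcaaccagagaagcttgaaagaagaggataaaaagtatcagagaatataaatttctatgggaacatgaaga
XTH6: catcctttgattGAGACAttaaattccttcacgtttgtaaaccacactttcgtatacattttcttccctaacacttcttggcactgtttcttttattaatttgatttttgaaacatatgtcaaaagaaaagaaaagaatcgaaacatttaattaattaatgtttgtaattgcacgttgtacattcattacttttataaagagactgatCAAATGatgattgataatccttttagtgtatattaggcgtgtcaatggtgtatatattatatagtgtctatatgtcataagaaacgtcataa
XTH4: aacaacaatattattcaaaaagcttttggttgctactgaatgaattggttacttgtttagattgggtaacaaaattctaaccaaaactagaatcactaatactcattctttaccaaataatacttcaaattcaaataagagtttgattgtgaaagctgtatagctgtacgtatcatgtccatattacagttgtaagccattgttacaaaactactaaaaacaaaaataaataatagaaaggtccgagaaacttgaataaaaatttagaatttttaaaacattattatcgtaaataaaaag
AGP21: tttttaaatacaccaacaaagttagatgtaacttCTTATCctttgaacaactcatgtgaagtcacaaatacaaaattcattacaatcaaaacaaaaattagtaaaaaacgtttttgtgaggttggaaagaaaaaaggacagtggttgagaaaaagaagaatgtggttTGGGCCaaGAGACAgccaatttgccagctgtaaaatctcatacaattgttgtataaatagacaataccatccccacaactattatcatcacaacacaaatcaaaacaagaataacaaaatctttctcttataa
DGR2: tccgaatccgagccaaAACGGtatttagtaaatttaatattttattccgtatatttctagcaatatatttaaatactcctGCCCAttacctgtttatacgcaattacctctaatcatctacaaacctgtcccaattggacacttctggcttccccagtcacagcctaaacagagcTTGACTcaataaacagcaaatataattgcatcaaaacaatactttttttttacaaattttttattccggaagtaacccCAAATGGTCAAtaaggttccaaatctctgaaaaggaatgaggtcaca
In these windows SAUR29 and XTH4 held none of the 15 motifs. XTH6 held the auxin response element TGTCTC and the E-box CATTTG, both on the strand opposite to the printed one. AGP21 held the I-box GATAAG and the auxin response element TGTCTC on the opposite strand. On the printed strand AGP21 held the site II element TGGGCC, whose reverse complement contains GCCCA. DGR2 held GCCCA, the mitosis element core AACGG and the W-box TTGACT. On the other strand it held the E-box CATTTG and the W-box TTGACC, which share 1 base.

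Shares of windows with each motif were counted for all 126 members and for all 26635 promoters of the same length. The comparisons with other WT-repressed and tested loci, and the choice of the DGR2 window, were made after motif shares were seen. On either strand TTGACC was in 4 of 126 members' windows (DGR2, AT2G42320, TET10 and AT1G70100), in 7.73% of those of the other WT-repressed loci, in 14.6% of those of tested loci and in 14.2% of all. The other W-box, TTGACT, was in 14.3% of the members' windows, 19.9% of those of the other WT-repressed loci and 21.9% of all. TGGGCC, the site II element, was in 11.9% of members and 15.7% of all, GCCCA in 24.6% and 26.2%, AACGG in 21.4% and 24.7%, AAACCCT in 7.14% and 9.98%, the G-box CACGTG in 5.56% and 7.81% and TGTCGG in 3.97% and 5.13%. The E-box CACTTG was in 15.9% of members and 11.2% of all, GATAAG in 17.5% and 14.6%, AATATCT in 13.5% and 11.6% and TGTCTC in 15.9% and 14.2%. CATTTG (20.6% and 21.7%), CATGCA (9.52% and 9.77%) and CCAATCA (5.56% and 5.17%) were at nearly the same shares. These shares are descriptions: a letter match is no binding site, and the median GC content of the windows was 30.7% in members and 32% over all.

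In all, the members took 4897, 5579 and 6003 TPM in the sid2 latB libraries, 4712, 7059 and 5371 TPM in sid2 DMSO, 1532, 1652 and 1483 TPM in WT latB and 7404, 6522 and 6586 TPM in WT DMSO. The sid2 libraries of both treatments overlapped each other, and all but 1 of them, sid2 DMSO replicate 2, lay below the lowest WT DMSO library. Relative to its WT DMSO mean, the median member stood at -0.50, -0.31 and -0.28 on the log2(TPM + 1) scale in the sid2 latB libraries and at -0.59, -0.14 and -0.35 in sid2 DMSO, against -1.90, -1.89 and -1.87 in WT latB. In leaf tissue, fewer cells of a type and less RNA per cell cannot be told apart.

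**Figure D2:**
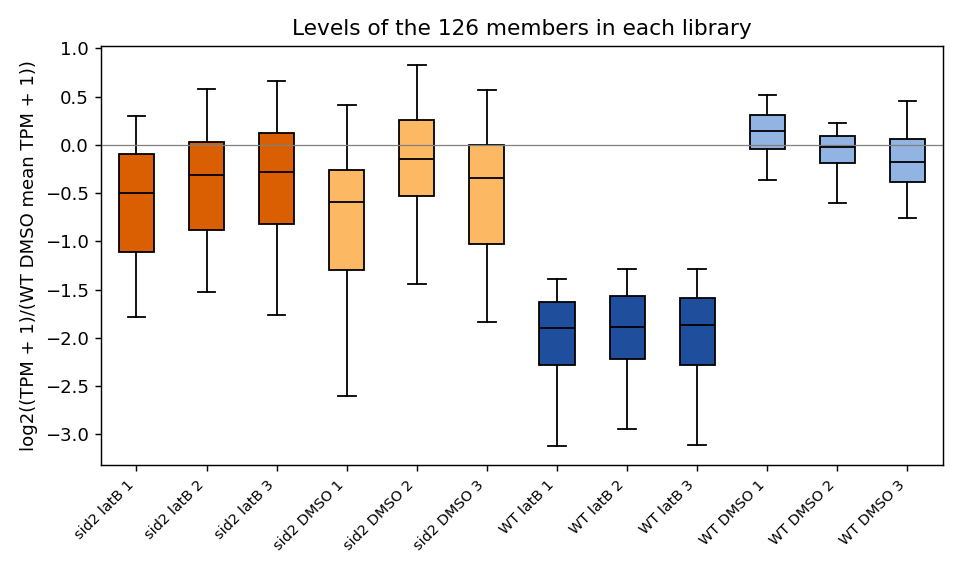
Levels of the 126 members in each of the 12 libraries, as log2((TPM + 1)/(WT DMSO mean TPM + 1)). Boxes span the 25th to 75th percentile of the members with the median as a line, and whiskers reach the 5th and 95th percentiles. Medians of the 6 sid2 libraries lie between -0.59 and -0.14, and those of the WT latB libraries between -1.90 and -1.87.

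Within sid2 DMSO, replicate 2 was the highest library in 66.4% of the 125 members with a mean TPM of at least 1, against 27.7% of all 16390 such loci, and replicate 1 the lowest in 60.8%, against 28.1%. In WT DMSO, whose libraries chose the members, replicate 1 was the highest in 58.4% (27.6% of all) and replicate 3 the lowest in 57.6% (29.2% of all). In 124 of 126 members the libraries of sid2 latB and sid2 DMSO overlapped, and in the other 2, AT4G17810 and AAE14, those of sid2 latB all lay below. The sid2 band of the rule favours such overlap, and the share over all loci was not counted. Nothing is read from this count.

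Xyloglucan enzymes and expansins gave 8 members, and they included 2 of the 3 with the lowest L. XTH4, an enzyme that grafts xyloglucan chains, stood at 37.3, 69.5 and 53.5 TPM in sid2 latB, 21.5, 76.4 and 52.05 in sid2 DMSO, 5.49, 9.88 and 16.01 in WT latB and 194, 149 and 95.02 in WT DMSO. Its sid2 libraries all lay between the WT latB and the WT DMSO libraries. XTH6, of the same family, had 38.3, 69.2 and 40.4 TPM in sid2 latB, 25.4, 71.7 and 39.4 in sid2 DMSO, 5.57, 4.55 and 5.01 in WT latB and 91.1, 99.1 and 61.2 in WT DMSO. In WT latB its libraries lay close together at the bottom, and the sid2 libraries spread over a range that reached into that of WT DMSO. TCH4, the touch-induced XTH22, was at 19.9, 32.6 and 29.3 TPM in sid2 latB, 8.84, 59.01 and 12.4 in sid2 DMSO, 6.04, 12.5 and 25.1 in WT latB and 136, 50.1 and 65.3 in WT DMSO. Its spread within sid2 DMSO and within WT DMSO was wide, and it passed in neither genotype contrast. XTH16 was scarce, with 0.658, 1.69 and 1.62 TPM in sid2 latB, 1.05, 1.501 and 0.449 in sid2 DMSO, 0.0653, 0.361 and 0.194 in WT latB and 6.98, 3.12 and 2.47 in WT DMSO. XTH33 had no reads in any WT latB library and at most 0.799 TPM in a sid2 library, against 1.86 to 4.22 TPM in WT DMSO. With 3 reads over the group as a floor, the WT DMSO level was at least 86.9-fold higher than that of WT latB, and such floors cover counting error only.

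The expansins went different ways. EXPA5, a wall-loosening expansin of leaves, had 18.4, 29.7 and 10.9 TPM in sid2 latB, 18.5, 9.19 and 23.4 in sid2 DMSO, 6.001, 4.94 and 3.36 in WT latB and 21.4, 21.2 and 16.3 in WT DMSO. EXPA11 had 27.3, 35.2 and 24.9 TPM in sid2 latB, 30.5, 28.03 and 20.8 in sid2 DMSO, 6.07, 4.19 and 1.71 in WT latB and 16.8, 10.4 and 18.8 in WT DMSO. All 6 sid2 libraries of EXPA11 lay above its highest WT DMSO library, while those of EXPA5 overlapped the WT DMSO range. EXLA2, an expansin-like gene, was near the floor outside WT DMSO, at 0 to 1.04 TPM in the other groups against 1.21 to 5.47 TPM there. Of the lists, 5 of 23 tested XTH genes and 3 of 18 expansins were members, beside 0.689% of all tested loci. Over the tested XTH genes 14 passed as lower and 2 as higher in WT latB against WT DMSO, and over the expansins 11 and 0, where 22.7% of all loci passed as lower and 22.1% as higher. These counts include the 5 XTH and 3 expansin members, which the rule chose for being lower in this contrast.

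Other wall enzymes gave 8 members. BGAL1, a beta-galactosidase, was the most abundant, with 115, 126 and 177 TPM in sid2 latB, 108, 158 and 128 in sid2 DMSO, 19.9, 24.8 and 15.5 in WT latB and 76.97, 111 and 146 in WT DMSO. None of its sid2 libraries lay below the lowest WT DMSO library. AT3G05910, annotated as a pectin acetylesterase, had 69.9, 71.7 and 68.8 TPM in sid2 latB, 59.2, 96.3 and 79.9 in sid2 DMSO, 20.8, 30.2 and 18.7 in WT latB and 92.7, 81.5 and 76.1 in WT DMSO. PMR6, a pectate lyase-like protein whose loss makes plants resistant to powdery mildew, was at 14.3, 11.3 and 15.7 TPM in sid2 latB, 9.05, 18.8 and 17.1 in sid2 DMSO, 7.53, 7.25 and 8.61 in WT latB and 35.2, 27.003 and 20.5 in WT DMSO. Its sid2 libraries lay between those of WT latB and WT DMSO, as did those of AT5G65470, an O-fucosyltransferase family member. BXL2 (a beta-xylosidase), AT2G05790 (a glycosyl hydrolase of family 17), AT3G15720 (pectin lyase-like) and AT4G25260 (a putative invertase or pectin methylesterase inhibitor) had WT DMSO means of 4.04 to 16.4 TPM.

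Proteins of the cell surface and wall gave 15 members, 6 of them among the 31 tested arabinogalactan and fasciclin-like genes. FLA13, a fasciclin-like arabinogalactan protein, had 36.4, 51.8 and 42.1 TPM in sid2 latB, 30.998, 40.04 and 41.6 in sid2 DMSO, 9.14, 14.4 and 10.7 in WT latB and 137, 168 and 74.6 in WT DMSO. Every sid2 library lay above every WT latB library and below every WT DMSO library. AGP21, a short arabinogalactan peptide, was at 53.2, 75.8 and 76.5 TPM in sid2 latB, 15.8, 57.8 and 98.9 in sid2 DMSO, 1.405, 19.8 and 9.41 in WT latB and 212, 131 and 80.3 in WT DMSO. Its WT latB libraries lay far apart and overlapped the lowest sid2 DMSO library, while the highest sid2 DMSO library reached into the WT DMSO range. FLA8 and FLA16 had sid2 ranges of 20.6 to 43.9 and 15.1 to 28.1 TPM, against 5.65 to 6.92 and 5.59 to 9.16 TPM in WT latB and 31.9 to 44.0 and 19.5 to 27.3 TPM in WT DMSO. AGP9 stood at 34.8, 43.2 and 29.7 TPM in sid2 latB, 31.1, 47.8 and 28.1 in sid2 DMSO, 18.02, 14.6 and 20.3 in WT latB and 73.8, 55.3 and 39.8 in WT DMSO. FLA18 stood at 19.3, 22.3 and 27.6 TPM in sid2 latB, 18.3, 35.3 and 23.8 in sid2 DMSO, 13.99, 12.2 and 21.8 in WT latB and 59.7, 53.5 and 37.4 in WT DMSO. Its sid2 latB and WT latB libraries overlapped, unlike those of the other 5.

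PRP4, a proline-rich wall protein, was the most abundant member of this group, with 149, 279 and 122 TPM in sid2 latB, 182, 152 and 152 in sid2 DMSO, 71.4, 71.6 and 38.1 in WT latB and 189.7, 226 and 172 in WT DMSO. DGR2, a DUF642 protein of the wall, had 60.1, 79.6 and 89.4 TPM in sid2 latB, 69.4, 105 and 66.1 in sid2 DMSO, 7.65, 7.94 and 8.91 in WT latB and 65.3, 41.8 and 91.1 in WT DMSO. For DGR2 the sid2 libraries sat inside or above the WT DMSO range. SKU5, a GPI-anchored protein that shapes directional growth of roots, had 22.9, 29.01 and 27.1 TPM in sid2 latB, 21.3, 43.3 and 23.005 in sid2 DMSO, 9.26, 9.0003 and 9.04 in WT latB and 57.5, 50.02 and 37.95 in WT DMSO. PHI-1, an EXORDIUM-like protein, differed from these: it was at 1.45 to 2.64 TPM in sid2 latB and 0.270 to 3.18 TPM in sid2 DMSO, against 1.75 to 4.195 TPM in WT latB and 8.24 to 18.1 TPM in WT DMSO. Its sid2 libraries and its WT latB libraries overlapped. PELPK1 varied from 0 to 10.1 TPM among the sid2 libraries and passed in neither genotype contrast.

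**Figure D3:**
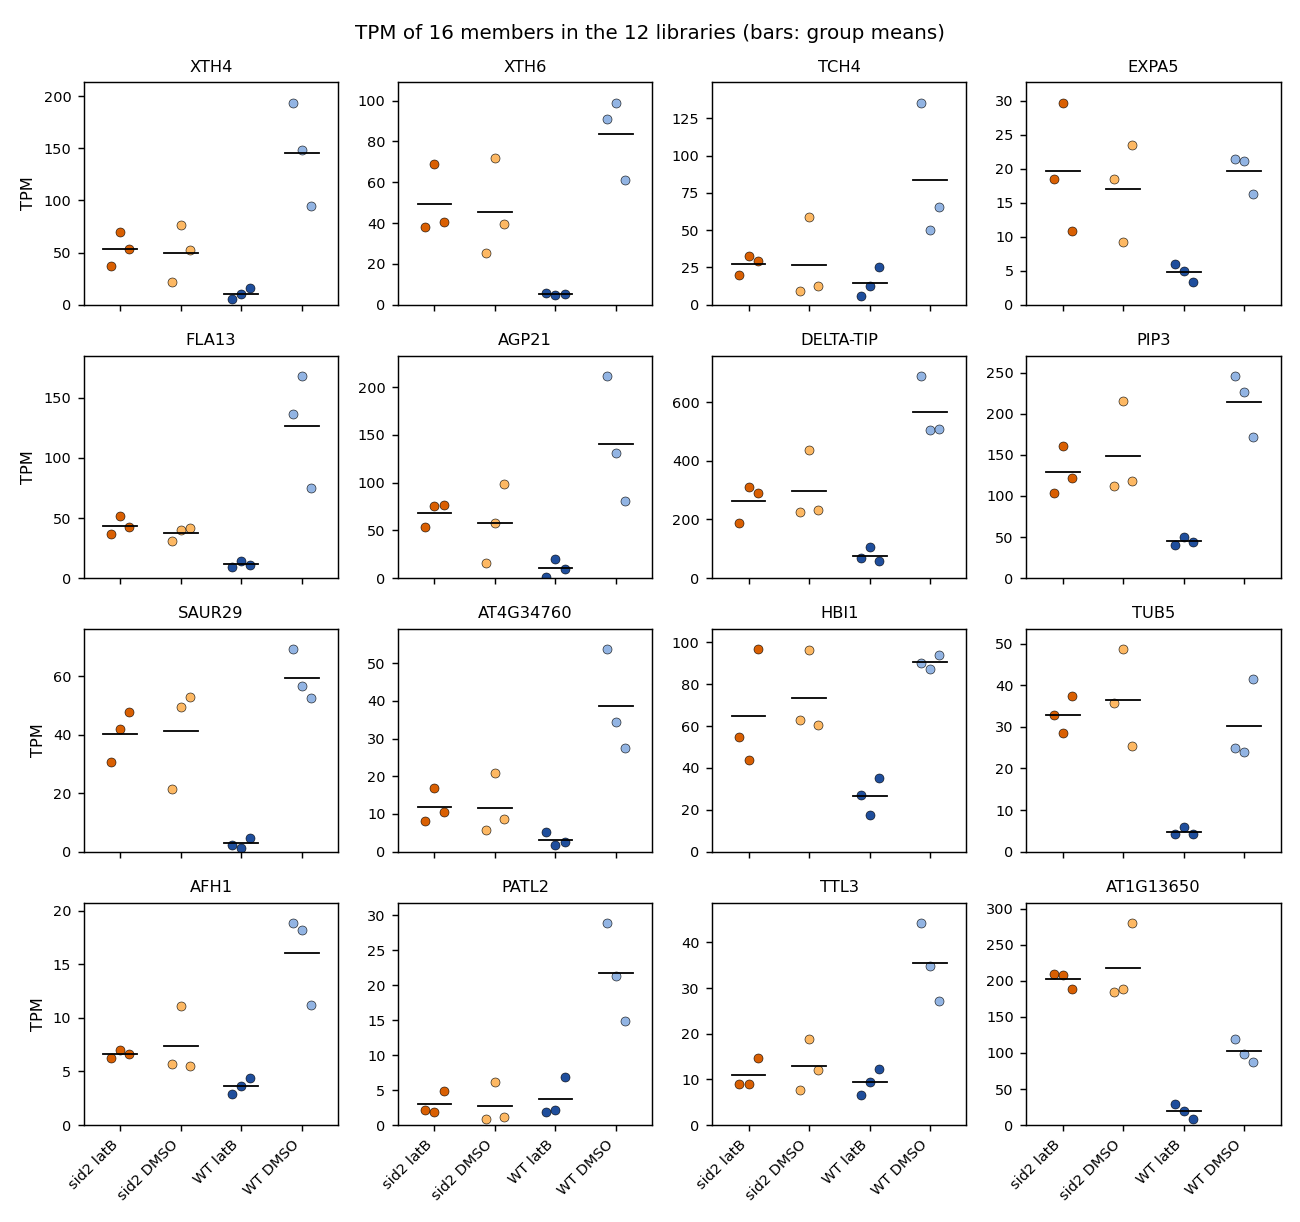
TPM of 16 members, picked after their values were seen, in every library (points), with group means as short lines; each y axis starts at 0 and groups run from sid2 latB to WT DMSO. In most panels the WT latB points lie lowest, as for XTH6 with 4.55 to 5.57 TPM, while PATL2 and TTL3 are low in all groups but WT DMSO and AT1G13650 is highest in sid2.

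Water channels gave 2 members of 21 tested aquaporins. DELTA-TIP, the tonoplast aquaporin TIP2;1, had 188, 311 and 289 TPM in sid2 latB, 225, 436 and 231 in sid2 DMSO, 67.8, 105 and 58.1 in WT latB and 689, 504 and 508 in WT DMSO. Its sid2 libraries all fell between the ranges of WT latB and WT DMSO. PIP3, the plasma membrane aquaporin PIP2;7, had 103, 161 and 122 TPM in sid2 latB, 113, 216 and 118 in sid2 DMSO, 39.8, 50.3 and 43.99 in WT latB and 246, 226 and 171 in WT DMSO. Of its sid2 libraries, sid2 DMSO replicate 2 alone reached the WT DMSO range.

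SAUR-like genes gave 7 members of 43 tested genes so annotated, a list made after the values were seen; by symbol alone, 3 of 14 tested SAUR genes were members. SAUR29 had the lowest L of all, with 30.6, 42.03 and 47.6 TPM in sid2 latB, 21.3, 49.3 and 52.8 in sid2 DMSO, 2.28, 1.26 and 4.79 in WT latB and 69.1, 56.8 and 52.4 in WT DMSO. Every other library stood above every WT latB library, and sid2 DMSO replicate 3 reached the WT DMSO range. AT4G38840, the most abundant, had 97.6, 95.03 and 104 TPM in sid2 latB, 113, 106 and 101 in sid2 DMSO, 63.3, 49.5 and 40.1 in WT latB and 149.6, 165 and 137 in WT DMSO. It lies next to SAUR15 on chromosome 4 (chr4:18124978-18125559 and chr4:18126057-18126829), which had 14.4, 17.5 and 15.4 TPM in sid2 latB, 4.64, 10.3 and 27.9 in sid2 DMSO, 2.65, 2.34 and 3.18 in WT latB and 12.3, 15.02 and 18.2 in WT DMSO. Neighbours thus differed in level, and SAUR15 in sid2 overlapped WT DMSO while AT4G38840 did not. AT4G34760 was at 8.08, 16.8 and 10.6 TPM in sid2 latB, 5.69, 20.8 and 8.64 in sid2 DMSO, 5.13, 1.78 and 2.43 in WT latB and 53.6, 34.4 and 27.6 in WT DMSO. AT1G29430 and AT1G29450, of the SAUR cluster of chromosome 1, had 14.0 to 29.5 and 9.47 to 20.4 TPM over the sid2 libraries, against 2.81 to 3.61 and 0.595 to 3.38 TPM in WT latB. SAUR68 of the same cluster missed the band at -0.2550. Near-identical copies share reads with AT1G29430 (97% identical to SAUR75) and with SAUR20 (up to 92.6% identical to SAUR24), so the split between copies is uncertain for both, as it is for AT1G51402 and AT1G15180.

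Secreted and signalling peptides gave 6 members. RALF23, a ligand of the receptor kinase FERONIA, had 85.1, 92.02 and 88.6 TPM in sid2 latB, 75.9, 102 and 60.5 in sid2 DMSO, 36.7, 36.5 and 25.4 in WT latB and 96.99, 109 and 87.1 in WT DMSO. RALFL34 of the same family had 46.3, 63.8 and 45.6 TPM in sid2 latB, 43.6, 48.3 and 53.2 in sid2 DMSO, 13.7, 13.97 and 14.7 in WT latB and 64.6, 55.1 and 40.5 in WT DMSO. In both genes every sid2 library stood above WT latB and some lay within the WT DMSO range. GASA4, a gibberellin-regulated peptide, had 31.2, 29.4 and 22.6 TPM in sid2 latB, 30.8, 30.1 and 22.8 in sid2 DMSO, 19.04, 13.4 and 15.7 in WT latB and 57.2, 55.6 and 42.5 in WT DMSO. Its sid2 libraries lay in the gap between the WT groups. RTFL16, a ROTUNDIFOLIA-like peptide, spanned 4.19 to 40.4 TPM within sid2 DMSO alone, and RGF6 and the gibberellin-regulated AT5G14920 completed the group.

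Transcriptional regulators gave 12 members. The bHLH factor HBI1, which promotes cell elongation and dampens immunity, had 54.8, 43.7 and 96.6 TPM in sid2 latB, 63.02, 96.3 and 60.4 in sid2 DMSO, 27.3, 17.7 and 35.1 in WT latB and 89.97, 87.4 and 93.98 in WT DMSO. Its sid2 libraries spread widely, and 2 of them lay above the narrow WT DMSO range. TCP11 (AT5G08330, also called CHE and TCP21), which binds the promoter of the clock gene CCA1, had 68.4, 61.4 and 91.9 TPM in sid2 latB, 64.2, 115 and 60.4 in sid2 DMSO, 34.6, 29.9 and 45.7 in WT latB and 165, 113 and 110.1 in WT DMSO. AT5G61590 (DEWAX), a repressor of wax genes, was at 54.2, 38.2 and 101 TPM in sid2 latB, 53.8, 74.6 and 51.7 in sid2 DMSO, 27.2, 31.1 and 47.3 in WT latB and 111, 91.7 and 106 in WT DMSO. WRI4, an activator of wax genes, was at 6.42 to 18.3 TPM over the sid2 libraries, against 1.72 to 2.13 TPM in WT latB and 6.66 to 15.7 TPM in WT DMSO. YAB3, a factor of the lower leaf side, had 17.2, 13.5 and 19.4 TPM in sid2 latB, 15.7, 22.1 and 16.1 in sid2 DMSO, 4.79, 5.83 and 4.69 in WT latB and 16.8, 19.3 and 14.99 in WT DMSO. AT4G17810, a zinc-finger protein, had 26.7, 26.02 and 27.3 TPM in sid2 latB, 29.8, 31.4 and 32.4 in sid2 DMSO, 6.903, 6.05 and 6.798 in WT latB and 26.5, 22.6 and 25.4 in WT DMSO. Its libraries lay close together within each group, and all but 1 of its sid2 libraries were above WT DMSO. OFP15, BT1, AT3G57800, AT3G60320, AT2G42040 and AT4G30410 had WT DMSO means of 5.50 to 52.8 TPM.

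Cytoskeleton, membrane and trafficking genes gave 7 members. TUB5 was the only one of 15 tubulin genes to be a member, with 32.9, 28.5 and 37.5 TPM in sid2 latB, 35.7, 48.6 and 25.3 in sid2 DMSO, 4.32, 5.805 and 4.22 in WT latB and 24.97, 23.9 and 41.6 in WT DMSO. Its sid2 libraries all stood above WT latB and none lay below the WT DMSO range. A lower level in WT latB was not particular to TUB5. Of the 15 tubulin genes 13, TUB5 among them, passed as lower there, beside 22.7% of all loci. None of the 15 passed in sid2 latB against sid2 DMSO. TUB6 had an L of -1.245 in WT and 0.04 in sid2, so the WT threshold kept it out. The formin AFH1, which nucleates actin filaments at the plasma membrane and was the only member among 62 tested genes of actin and its partners, had 6.27, 7.01 and 6.65 TPM in sid2 latB, 5.68, 11.1 and 5.48 in sid2 DMSO, 2.94, 3.68 and 4.36 in WT latB and 18.8, 18.2 and 11.2 in WT DMSO. AT2G42170, annotated as an actin family protein and in no list, was at 1.34 to 2.89 TPM in sid2 latB and 2.397 to 3.139 TPM in sid2 DMSO, against 0 to 0.269 TPM in WT latB and 1.23 to 4.53 TPM in WT DMSO. Only its WT latB libraries stood apart. PATL2, a patellin, of a family that binds phosphoinositides, had 2.22, 1.87 and 4.82 TPM in sid2 latB, 0.862, 6.11 and 1.18 in sid2 DMSO, 1.84, 2.22 and 6.93 in WT latB and 28.9, 21.4 and 14.9 in WT DMSO. Its libraries were low in sid2 under both treatments and in WT latB, and high in WT DMSO alone. RABA1b, a small GTPase of secretory vesicles, had 17.7, 15.6 and 16.8 TPM in sid2 latB, 10.7, 15.03 and 17.9 in sid2 DMSO, 4.78, 4.58 and 5.54 in WT latB and 21.4, 17.8 and 14.7 in WT DMSO. TET10, a tetraspanin, stood at 4.90 to 10.4 TPM over the sid2 libraries, against 4.24 to 6.60 TPM in WT latB and 10.5 to 23.1 TPM in WT DMSO.

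Lipid genes gave 6 members. CER3, needed for the alkanes of leaf wax, had 15.02, 18.95 and 15.5 TPM in sid2 latB, 11.04, 15.8 and 16.3 in sid2 DMSO, 6.43, 8.39 and 8.01 in WT latB and 22.7, 25.3 and 22.3 in WT DMSO. Its 6 sid2 libraries all lay between the WT groups. FAD3, the linoleate desaturase of the endoplasmic reticulum, had 35.96, 38.6 and 43.01 TPM in sid2 latB, 34.1, 44.8 and 36.4 in sid2 DMSO, 14.1, 14.8 and 12.6 in WT latB and 54.6, 38.7 and 48.3 in WT DMSO. FAH1, which hydroxylates the fatty acids of sphingolipids, had 24.9, 28.3 and 39.2 TPM in sid2 latB, 31.1, 51.9 and 20.09 in sid2 DMSO, 24.3, 28.9 and 36.4 in WT latB and 112, 86.2 and 66.2 in WT DMSO. Its sid2 and WT latB libraries overlapped, and WT DMSO alone stood higher. LTP3, a lipid transfer protein, ranged from 4.12 to 63.4 TPM among sid2 DMSO libraries and passed in neither genotype contrast.

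Plastid proteins gave 6 members, with L between -1.63 and -1.52 in WT. AT5G52970, a thylakoid lumen protein, had 113, 122 and 98.3 TPM in sid2 latB, 99.6, 87.3 and 126 in sid2 DMSO, 45.3, 50.3 and 38.05 in WT latB and 128, 140.1 and 125 in WT DMSO. CHLI2, a subunit of the magnesium chelatase of chlorophyll synthesis and the only member among 42 tested genes of chlorophyll and carotenoids, had 36.7, 39.5 and 27.4 TPM in sid2 latB, 33.6, 29.1 and 46.3 in sid2 DMSO, 9.8996, 16.97 and 8.62 in WT latB and 38.5, 37.1 and 31.8 in WT DMSO. PQL3, a PsbQ-like protein of the thylakoid NDH complex, had 23.7, 25.1 and 22.9 TPM in sid2 latB, 29.5, 24.9 and 25.1 in sid2 DMSO, 6.54, 6.74 and 6.67 in WT latB and 19.3, 25.7 and 20.5 in WT DMSO. The sid2 libraries of CHLI2 and PQL3 overlapped WT DMSO, and 1 sid2 library of AT5G52970 reached it. Of the 42 tested genes of chlorophyll and carotenoids 35, CHLI2 among them, passed as lower in WT latB, beside 22.7% of all loci. None of the 42 passed in sid2 latB against sid2 DMSO. AAE14, an enzyme of phylloquinone synthesis, the initiation factor AT4G30690 and the trigger factor AT5G55220 had WT latB means of 6.18 to 23.2 TPM and WT DMSO means of 21.2 to 70.8 TPM. None of the 61 tested genes of the light reactions and none of the 37 of the Calvin cycle and photorespiration was a member, although 56 and 29 of them passed as lower in WT latB (22.7% of all loci), since none of them met the WT condition.

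Transport and nutrient genes gave 7 members. The asparagine synthetase gene ASN2 had 53.8, 67.4 and 55.9 TPM in sid2 latB, 32.8, 35.4 and 88.2 in sid2 DMSO, 20.4, 18.9 and 14.4 in WT latB and 68.2, 87.5 and 97.2 in WT DMSO. SWEET17, a vacuolar fructose carrier, had 29.04, 44.9 and 25.6 TPM in sid2 latB, 28.2, 40.7 and 42.9 in sid2 DMSO, 11.7, 18.3 and 11.7 in WT latB and 42.2, 50.1 and 42.998 in WT DMSO. AT1G52190 (NRT1.11), a nitrate transporter of the NPF family, had 14.9, 18.2 and 27.9 TPM in sid2 latB, 15.7, 31.4 and 23.3 in sid2 DMSO, 1.92, 2.23 and 6.36 in WT latB and 27.4, 14.1 and 18.9 in WT DMSO. None of its sid2 libraries lay below WT DMSO. Among kinases and receptors, DND1, a cyclic nucleotide-gated channel whose mutants accumulate salicylic acid, had 23.97, 26.2 and 28.2 TPM in sid2 latB, 21.7, 28.1 and 24.9 in sid2 DMSO, 11.3, 11.6 and 10.04 in WT latB and 40.8, 35.6 and 26.6 in WT DMSO. TTL3, a scaffold of brassinosteroid signalling, had 8.92, 8.996 and 14.7 TPM in sid2 latB, 7.78, 18.9 and 12.1 in sid2 DMSO, 6.63, 9.48 and 12.2 in WT latB and 44.3, 34.8 and 27.2 in WT DMSO, so that only WT DMSO stood high. AT4G19530, of the TIR-NBS-LRR receptor class, had 18.5, 17.7 and 21.6 TPM in sid2 latB, 17.04, 25.7 and 18.01 in sid2 DMSO, 7.22, 9.58 and 10.5 in WT latB and 38.6, 33.8 and 29.6 in WT DMSO. The leucine-rich repeat gene DRT100 was at 6.06 to 10.8 TPM over the sid2 libraries, against 0.359 to 0.590 TPM in WT latB and 5.64 to 8.18 TPM in WT DMSO.

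Of the members outside these roles, AT5G02160, an uncharacterized protein, had the highest level of all, with 845, 783 and 1004 TPM in sid2 latB, 821, 1245 and 887 in sid2 DMSO, 236, 223 and 133 in WT latB and 805, 663 and 987 in WT DMSO. AT3G15450, annotated as aluminium-induced, had 191, 196 and 366 TPM in sid2 latB, 192, 399 and 178 in sid2 DMSO, 23.1, 37.7 and 49.1 in WT latB and 138, 116 and 330.3 in WT DMSO. WT DMSO replicate 3 stood above the other libraries of its group in both genes. AT5G19190, uncharacterized, had 128, 111 and 205 TPM in sid2 latB, 105, 238 and 62.1 in sid2 DMSO, 16.8, 17.3 and 28.7 in WT latB and 168, 131 and 142 in WT DMSO. AT4G10910 had no reads in WT latB, 118 reads over the sid2 latB libraries and 59 over the WT DMSO libraries, so its sid2 latB level was at least 41.1-fold higher than that of WT latB.

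The rule set no limit on the level in sid2 leaves relative to WT. Under DMSO, 20 of 125 tested members passed as lower in sid2 than in WT (16%) and 2 as higher (1.6%), beside 6.56% and 4.46% of all loci. The median log2 fold change was -0.28, against 0.01 over all loci, and 91 members were below 0. The WT DMSO and sid2 DMSO libraries also entered the rule, so this contrast is not independent of the choice of members. The rule asked for WT DMSO libraries above those of WT latB, which favours calls of lower in sid2. The calls and adjusted p of members under DMSO are therefore a description. The count rested on single libraries: it was 5 without WT DMSO replicate 1, 9 without WT DMSO replicate 2, 6 without sid2 DMSO replicate 1, 33 without sid2 DMSO replicate 2, and 6 in a fit of the 6 DMSO libraries alone. The share of all loci was then 3.85%, 4.42%, 4.01%, 5.25% and 3.79%, so that the members' share lay near it without WT DMSO replicate 1 (4%), without sid2 DMSO replicate 1 (4.8%) and in the 6-library fit (4.84%).

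Of the 20, 5 passed as lower under all 18 alternatives. These were FLA13 (log2 -1.72 ± 0.26 SE, adjusted p = 0.00115), AT2G31010, a protein kinase (log2 -2.22 ± 0.42 SE, adjusted p = 0.00432), the aspartyl protease AT4G16563 (log2 -3.01 ± 0.57 SE, adjusted p = 0.00449), TTL3 (log2 -1.46 ± 0.30 SE, adjusted p = 0.0072) and PATL2 (log2 -3.02 ± 0.64 SE, adjusted p = 0.00878). Without sid2 DMSO replicate 2 the log2 values of AT4G16563 and PATL2 were -3.75 and -4.40, over 1.5 times the fold with all libraries. PHI-1 (log2 -2.57 ± 0.58 SE, adjusted p = 0.0128) lost its call without WT DMSO replicate 1 alone. FAH1 (log2 -1.32 ± 0.31 SE, adjusted p = 0.0166), AT5G65470 (log2 -1.13 ± 0.25 SE, adjusted p = 0.0123) and AT4G19530 (log2 -0.75 ± 0.18 SE, adjusted p = 0.0182) lost it without WT DMSO replicate 1 or sid2 DMSO replicate 1.

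AFH1 (log2 -1.12 ± 0.26 SE, adjusted p = 0.0157), CER3 (log2 -0.68 ± 0.17 SE, adjusted p = 0.0198) and AT3G07460 (log2 -0.80 ± 0.20 SE, adjusted p = 0.0197) lost it without either of these or without WT DMSO replicate 2. For XTH4 (log2 -1.51 ± 0.42 SE, adjusted p = 0.034), FLA18 (log2 -0.94 ± 0.25 SE, adjusted p = 0.0283), TET10 (log2 -1.45 ± 0.37 SE, adjusted p = 0.0234) and AT4G29310 the same 3 libraries and sid2 DMSO replicate 3 each ended the call. XTH16, AT4G34760, PMR6 and NPGR1 held it in 7, 6, 6 and 3 of the 12 fits that left out a library. Both members that were higher, AT5G54585 (log2 1.28 ± 0.35 SE, adjusted p = 0.0309) and AT1G13650 (log2 1.16 ± 0.33 SE, adjusted p = 0.0378), are uncharacterized, and neither kept its call without WT DMSO replicate 1 or 2. AT1G13650 had 209, 208 and 189 TPM in sid2 latB, 185, 189 and 280.4 in sid2 DMSO, 29.7, 19.8 and 8.11 in WT latB and 119.5, 98.7 and 88.1 in WT DMSO. All its sid2 libraries stood above WT DMSO.

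Under latrunculin B, 109 of 125 members (87.2%) passed as higher in sid2 than in WT and none as lower, beside 22.1% and 21.2% of all loci. The median log2 fold change was 2.06, also with the loci that had no WT latB reads at their bound. None had an unadjusted p under 0.05 in the lower direction, and DESeq2 and limma gave none either. The rule fixes the difference between this contrast and that under DMSO, so its size is not a second result. The rule also chose low WT latB libraries, which favours sid2 being higher here. The count, its direction and the adjusted p of members are therefore a description, and nothing is read from the shares over all loci. Of the 109, 99 held under all 18 alternatives. Scaling by library size alone shifted the median of all loci by -0.277 and left 102 members higher. The smallest adjusted p belonged to AT4G17810 (log2 2.28 ± 0.14 SE, adjusted p = 1.76e-07), the tautomerase-like AT5G57170 (log2 2.06 ± 0.15 SE, adjusted p = 6.37e-07), DRT100 (log2 4.33 ± 0.34 SE, adjusted p = 8.85e-07), DGR2 (log2 3.48 ± 0.28 SE, adjusted p = 9.53e-07) and AT1G70100 (log2 1.98 ± 0.16 SE, adjusted p = 1.08e-06). Next came AAE14, PQL3, AT3G05900, BGAL1 and TUB5, with log2 values of 2.18, 2.12, 2.74, 3.096 and 3.12. For AGP21 the value was log2 2.96 ± 0.72 SE, adjusted p = 0.00418, and 3.86 without WT latB replicate 2.

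The 16 tested members that did not pass there are split here by their call under DMSO, a split that the threshold makes. In 6 of them, PATL2 (log2 0.14 ± 0.62 SE, adjusted p = 0.875), PHI-1 (log2 -0.47 ± 0.58 SE, adjusted p = 0.536), FAH1 (log2 0.29 ± 0.31 SE, adjusted p = 0.491), TTL3 (log2 0.66 ± 0.30 SE, adjusted p = 0.0896), TET10 (log2 0.76 ± 0.38 SE, adjusted p = 0.122) and AT2G31010 (log2 0.68 ± 0.43 SE, adjusted p = 0.215), sid2 was lower than WT under DMSO instead. A further 10 passed in neither contrast, among them TCH4 (log2 1.13 ± 0.64 SE, adjusted p = 0.173), EXLA2 (log2 1.24 ± 0.91 SE, adjusted p = 0.287), PELPK1, RGF6, RTFL16, LTP3 and XTH33. Some of these came near a call of lower under DMSO, as XTH33 (log2 -3.67 ± 1.14 SE, adjusted p = 0.0602) and EXLA2 (log2 -2.56 ± 0.83 SE, adjusted p = 0.0622). Others did not, as RTFL16 (log2 -0.38 ± 0.67 SE, adjusted p = 0.775). Of the other tested members, 93 passed under latB alone, 14 were lower under DMSO and higher under latB, such as XTH4, FLA13, AFH1 and CER3, and 2 were higher in both. Taken singly, 6.56% of all loci were lower under DMSO and 22.1% were higher under latB. Shares of all loci in the joint classes were not counted. The rule favours both calls, so the joint counts are a description.

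**Figure D4:**
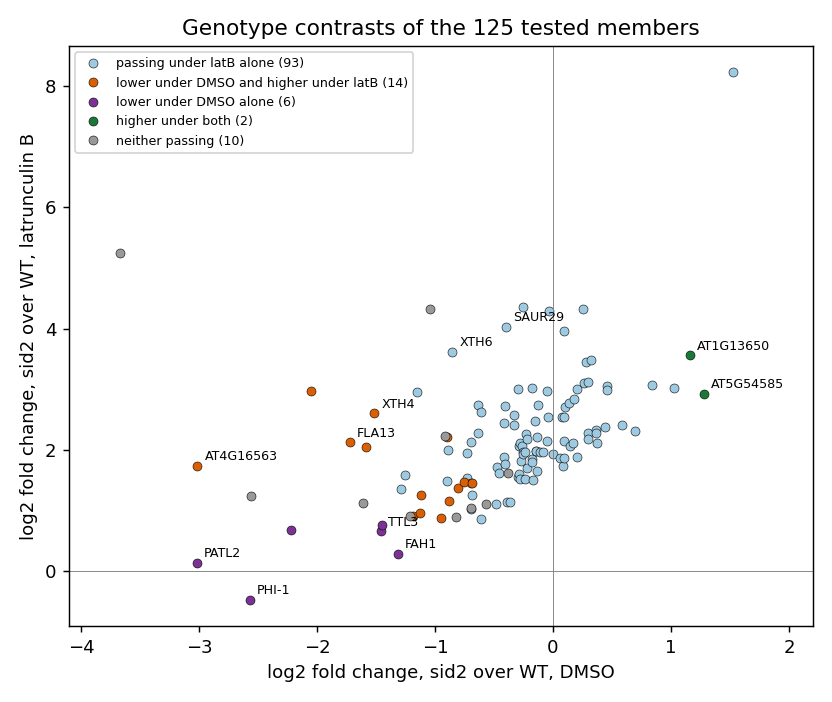
Log2 fold change of sid2 over WT under DMSO (x axis) and under latrunculin B (y axis) for the 125 tested members, coloured by which edgeR contrast passed, with 11 points labelled. The 93 members passing under latB alone lie between -1.29 and 1.53 on the x axis and at 0.87 or above on the y axis, and the 6 that were lower under DMSO alone lie between -0.47 and 0.76 on the y axis. The point at 8.23 on the y axis is AT4G10910, which had no WT latB reads, so that its fitted value is no bound.

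Counted by library rather than by test, all 6 sid2 libraries lay above the highest WT latB library in 103 of 126 members, beside 13.9% of loci with a mean TPM of at least 1. The rule used these WT and sid2 libraries, so the counts of positions are a description and nothing is read from the shares over all loci. In 27 members they all lay below the lowest WT DMSO library, beside 6.22%, and in 2, EXPA11 and AT1G13650, above the highest, beside 5.61%. Of the 27, 16 lay between the WT groups, among them XTH4, DELTA-TIP, FLA13 and GASA4. In PATL2 and PHI-1 all the sid2 libraries were at or below the highest WT latB library. Without WT DMSO replicate 3 the 27 became 48. The count of 2 became 9 without it, 6 without WT DMSO replicate 1 and 5 without sid2 DMSO replicate 1. Shares over all loci were not counted for the 16, for the position of PATL2 and PHI-1, or without a library.

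By role, members of the plastid group had a median log2 fold change of sid2 over WT under DMSO of 0.07, and none of 6 passed. The other wall enzymes had a median of 0.05 with 2 of 8 lower, and the nutrient and transport genes -0.24 with none of 7. The xyloglucan enzymes and expansins had -1.56 with 2 of 8 lower, the cytoskeleton and trafficking genes -0.89 with 4 of 7 lower, and the cell-surface proteins -0.61 with 3 of 15 lower, where 6.56% of all loci were lower. The lipid genes had -0.49 with 2 of 6 lower, and the kinases, receptors and channels -0.42 with 3 of 9 tested. The aspartyl proteases had -0.41 with 1 of 3 lower and the SAUR-like genes -0.18 with 1 of 7. None was lower among the water channels (-0.68), peptides (-0.495) or transcriptional regulators (-0.28). Of the 4 cytoskeleton and trafficking calls PATL2 alone held in every fit that left out a library, and AFH1, TET10 and NPGR1 lost theirs in some. Of the 3 cell-surface calls FLA13 alone held in every such fit, and neither xyloglucan call, XTH4 or XTH16, did. These roles were assigned by hand to 97 members after their values were seen, so they carry no test.

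Among the other WT-repressed loci, those with an L below the band in sid2 had 7 of 106 tested lower and 3 higher in sid2 under DMSO, with a median log2 of -0.05. Those with an L above the band had 22 of 74 lower and none higher, with a median of -0.99. Over all loci 6.56% were lower and 4.46% higher, so that the 7 of 106 (6.604%) lay at the share over all loci. The L in sid2 that sorts these sets shares the sid2 DMSO libraries with the contrast, so a higher L goes with a lower sid2 DMSO level by construction, and the differences were not tested.

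**Figure D5:**
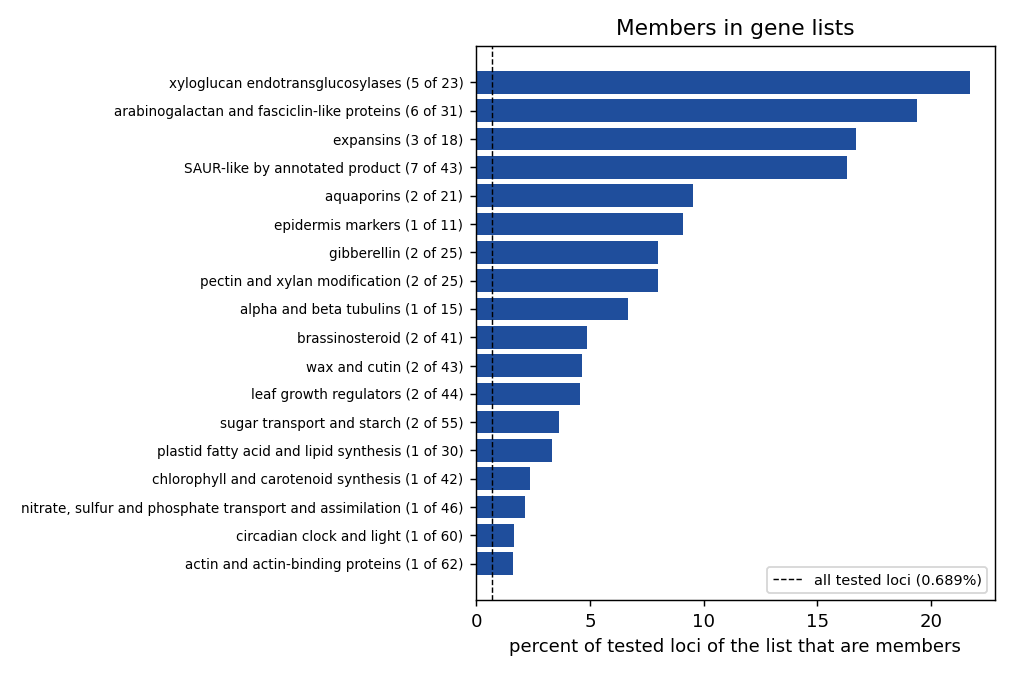
Share of the tested loci of each gene list that are members, in percent, for the 18 lists with at least 1 member, with the share over all tested loci (0.689%) as a dashed line; SAUR genes are drawn by annotated product. Bars run from 21.7% for xyloglucan endotransglucosylases to 1.61% for actin and actin-binding proteins. The 20 lists without a member are not drawn. In lists of these sizes 1 member already puts the bar above the line, so standing above it is no result.

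Of 38 gene lists, 18 held a member, and 35 members were in a list. Beside those above, 2 of 25 tested genes of pectin and xylan, 2 of 25 of gibberellin, 2 of 41 of brassinosteroid, 2 of 43 of wax and cutin, 2 of 44 of leaf growth and 2 of 55 of sugar and starch were members. No member was found among 19 genes of primary wall cellulose synthesis, of which 13 passed as lower in WT latB, or among 27 microtubule-associated proteins, of which 15 did, beside 22.7% of all loci. None of 66 auxin genes, 39 cytokinin genes, 60 cell cycle genes, 27 aliphatic glucosinolate genes, 39 jasmonate genes, 40 abscisic acid genes or 27 salicylic acid response genes was a member. Members were 0.689% of all tested loci, so a list of such a size can easily hold none, and these absences are no result. Of the 27 salicylic acid response genes 26 passed as higher in WT latB (22.1% of all loci), a direction that the rule leaves out.

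Lists of leaf cell type markers differed in how many passed as lower in WT latB, where 22.7% of all loci passed as lower and 22.1% as higher. In WT latB 8 of 11 tested epidermis markers and 14 of 14 mesophyll markers passed as lower, and the 13 epidermis markers summed to 300 to 725 TPM there, against 892 to 1294 TPM in WT DMSO. The 14 mesophyll markers summed to 57240 to 76150 TPM in WT latB and 128200 to 132500 TPM in WT DMSO. In sid2 the epidermis sum was 643 to 1307 TPM with latB and 574 to 931 TPM with DMSO, and the mesophyll sum 123500 to 132500 TPM and 122700 to 134800 TPM. Of the 15 tested guard cell markers 7 passed as lower and 2 as higher in WT latB, and the list summed to 205 to 253 TPM there, against 306 to 349 TPM in WT DMSO. The 20 phloem markers went the other way in their sum, with 659 to 708 TPM in WT latB and 379 to 536 TPM in WT DMSO. Only 2 of the 20 tested passed as higher and 1 as lower, with a median log2 of 0.08, so the calls did not share the rise of the sum. In sid2 the phloem sum was 488 to 543 TPM with latB and 652 to 689 TPM with DMSO. There 6 of the 20 passed as lower with latB, beside 1.21% of all loci, and none as higher. Of the trichome markers 1 of 9 tested passed as lower and none as higher, of the xylem markers 3 of 13 and none, and of the bundle sheath and myrosin cell markers 2 of 7 as lower and 1 as higher. One epidermis marker, CER3, is itself a member, no mesophyll marker was at 0 in any group, and 1 epidermis marker was at 0 in all WT latB libraries. The part of these markers in the results was not tested.

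In the genome the members lay on all 5 chromosomes, with 27, 20, 26, 20 and 33 on chromosomes 1 to 5, or 0.389% to 0.536% of the loci of each. Pairs of members next to each other or 1 gene apart were AT1G29430 and AT1G29450, WRI4 and AT1G79720, AT3G05900 and AT3G05910, and AT4G38840 and SAUR15. The median coding length was 877.5 bases in members and 1047 over all loci, and 25 members had more than 1 transcript model.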

How the data were processed

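RNA of 12 leaf libraries was sequenced from a strand-specific kit, per the labels' protocols. Trimmomatic and Salmon 1.3.0 with TAIR10 are named in the submitters' processing notes. The deposited files give, for 32875 transcript models, Salmon's estimated count and TPM, per the file headers. Lengths are multiples of 3 in 99.99% of models, so they are coding models without UTRs.

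TPM and estimated counts were summed over the models of a locus. Counts were rounded and tested with edgeR 4.0.16 (filterByExpr, TMM, quasi-likelihood fit over all 4 groups), with Benjamini-Hochberg adjustment over 18149 loci and a threshold of 0.05. The SE of a log2 fold change is its size over the square root of F. DESeq2 1.42.0, limma 3.58.1 on log2(TPM + 1), other scalings, no filter, a 6-library fit and leaving out each library were alternatives. The fits were tested on simulated data, where DESeq2 made false calls above its nominal rate. Replicates were numbered in accession order. All 12 libraries were kept.

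The members and the gene lists were chosen with earlier results of these data known. Genes were named by fixed ranks (the 15 highest WT DMSO means, the 15 lowest L, the 10 smallest adjusted p per direction of each genotype contrast) and as members of the lists. The grouping by role, the SAUR list by product, genes named for their role and the members drawn were picked after values were seen. Names and promoter windows came from RefSeq's TAIR10.1, whose coding lengths matched a deposited model for all 126 members. Copies were sought with blastn 2.17.0 (at least 90% identity over at least 50% of the coding sequence).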

Additional observations from a re-analysis of the deposited data

Results flagged for a closer look

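The response of sid2 (latB over DMSO) minus the response of WT passed edgeR's interaction test as positive in 117 of 125 tested members, beside 13.4% of all loci. The choice of members by both responses fixes this difference, so it is given as a value and nothing is read from it.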

How the results depend on the processing

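The number of members rested on the rule's settings. It was 234 with a pseudocount of 0.1 (113 of the 126 among them), 54 with 5 (42), 299 with TMM-scaled CPM (85), 74 with a sid2 band of 0.15, 199 with 0.5, and 97 to 147 when a library was left out (79 to 118 shared). Under DMSO, all loci passing between sid2 and WT numbered 1044 in the 6-library fit and 1035 to 2347 without a library, against 2001 in the full fit; members passing as lower numbered 6 in the 6-library fit and 5 to 33 without a library, and members passing as higher 1 there, 0 with limma and 0 to 3 without a library. Under latB, members passing as higher numbered 101 to 115 without a library. All sid2 libraries lay above the WT latB range in 103 to 110 members, below the WT DMSO range in 27 to 48 and above it in 2 to 9. Of the named genes' values under alternatives, 66 under DMSO and 16 under latB lost their call, 276 and 1010 kept it, and none reversed. The cause of these moves was not tested. No paired analysis was possible because the labels give the groups no shared replicate numbers.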
